A study of Homo sapiens with 34 samples.

Results

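m6Am-seq mapped cap-adjacent N6,2′-O-dimethyladenosine (m6Am) in HEK293T cells, a human embryonic kidney line, and the 675 spans described here are the short ones not listed under hypoxia among 1652 m6Am spans deposited for unstressed cells (40.9%). They were chosen by measured values: the span, both end bases included, was at most 1000 bp long and shared no base with any span of the deposited hypoxia list. Capped RNA fragments were enriched with an m7G antibody (m7G-IP), treated with the demethylase FTO or left untreated, and enriched with an m6A antibody (m6A-IP). m6Am was called by the authors at peaks that FTO treatment lowered more than 2-fold. Unstressed wild-type cells had 2 libraries each of input, m7G-IP, and m6A-IP with and without FTO. Hypoxic cells (1% oxygen for 24 h), heat-shocked cells (43 °C for 2 h, then 6 h of recovery) and untreated control cells each had 2 libraries of every immunoprecipitate and 1 input. The hypoxia and heat shock lists are deposited as stress-induced peaks, set against untreated cells, and may include lowered as well as raised peaks. A span absent from them can still carry m6Am under stress. The unstressed list gives chromosome, start, end and gene name but no strand, signal or replicate, so depth and replicate error are unknown for each span.

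m6Am sits on the first transcribed base of an mRNA, next to the m7G cap, when that base is an adenosine. PCIF1 adds the N6 methyl group after the ribose of that adenosine has been methylated. A first exon begins at the same base and carries all or the first part of the 5′ leader. In many genes it also carries the start codon at which translation begins. All positions are GRCh37 (hg19), numbered from 1. Of the 675 short spans, 673 had a gene name, with 666 distinct names. A Gencode gene of that name lay at or near 656 of them (634 by the name itself and 22 by an older symbol), 17 names were unmatched and 2 spans had no name. Each of the 656 was read on the transcript whose annotated start lay nearest its 5′ edge. The gene was protein-coding for 622 spans and a long noncoding RNA for 28, and 570 transcripts had an annotated start codon, which was ATG in all 570.

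The sequences show the bases around starts at which transcripts are annotated to begin. The 19 printed here come from spans whose 5′ edge fell exactly on an annotated start. They are the first by position among the eligible spans, at most 2 per gene group. A gene of more than 1 group, such as FOXD3-AS1, was counted in 1 of them. Some spans were not eligible by a rule given with the processing, so YTHDF3 is not printed although it began at a start. Each line gives the 15 bases before the start and 15 bases from it, read 5′ to 3′ on the transcribed strand from the GRCh37 genome. Capitals mark the triplet that ends at the first transcribed base, which is base 16. Upstream bases are promoter, and bases from 16 on belong to the first exon.
DCP1B (chr12:2113687-2113716, minus strand): aaggcctcccgggCCGtgtggtcgccgtgg
ZNF518A (chr10:97889457-97889486, plus strand): ttaaaatctcaggGTGgagaccattcccag
ZNF160 (chr19:53606673-53606702, minus strand): gtcgctttccttcGCGcagttgcccacaga
NDUFAF1 (chr15:41694644-41694673, minus strand): ggcggaaggtacaCTAtaggctcggggagg
EEF1B2 (chr2:207024303-207024332, plus strand): tggacccgcagttCCGccggaagtggcccc
RBMS1 (chr2:161350304-161350333, minus strand): gggcgcacccaccCCAgatgccgcctggca
RBM48 (chr7:92158072-92158101, plus strand): aaagggagctcagTAGggcggatgttgtcc
CUL3 (chr2:225450100-225450129, minus strand): ctgggccggatctCGTctcgctcaggcgga
RNF150 (chr4:142054602-142054631, minus strand): acacaaacatacaGACacacacacacggac
POLE4 (chr2:75185755-75185784, plus strand): gccgcatgcgcgcGCAcagtcggcggccgc
ORC4 (chr2:148779159-148779188, minus strand): agggggggagtggAGGaggaggaggcgaag
RAB29 (chr1:205744596-205744625, minus strand): aaagctgggaaatGTAgtgccacaggcaac
GOLGA4 (chr3:37284667-37284696, plus strand): catgtgcgggaccCGAcattgtgcttgtcc
HIST1H2BO (chr6:27861188-27861217, plus strand): acccagcttgtccTCAttcttgttatttga
ING3 (chr7:120590802-120590831, plus strand): gttttttttttttTCTttttttttttttgc
FOXD3-AS1 (chr1:63789332-63789361, minus strand): ttgcccgggttgcCCGgctcgcgggggatc
NUTM2B-AS1 (chr10:81586336-81586365, minus strand): tgacagcagtgggCCGgccctccggctgag
PAX3 (chr2:223163701-223163730, minus strand): agcccggatccccGCActcggtgtcaccac
ID4 (chr6:19837586-19837615, plus strand): cgcggcgggccggGCGagagcgtagtggag
Of these 19 starts, 7 had A as the first base and 4 had the triplet CCA, GCA or TCA, the C-A pair preceded by a base other than A. RBMS1, POLE4, HIST1H2BO and PAX3 carried such a triplet. DCP1B, EEF1B2, ZNF160 and ID4 began with G at the start nearest their span.

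The median short span covered 270 bp (quartiles 210 and 418 bp; shortest 60 bp, longest 992 bp). At most 150 bp were covered by 44 of them, 359 were longer and reached at most 300 bp, 151 reached at most 500 bp and 121 lay above that. Lengths fell on a regular grid. The commonest lengths were 240 bp (36 spans), 211 bp (32 spans), 181 bp and 270 bp (30 spans each). Divided by 30, the length left a remainder of 0 in 199 spans and of 1 in 194, together 58.2%, where 2 of 30 remainders would hold 6.67% of evenly spread lengths. Among spans that ended in the first exon, 69.3% had such a length, and among spans that ran past it 18.9% did. Short hypoxia-listed spans shared the grid, with 55.1% (59 of 107). In longer spans not listed under hypoxia the share was 6.23% by length and 20.9% by exonic bases, against 36.7% by exonic bases in the short spans.

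**Figure D1:**
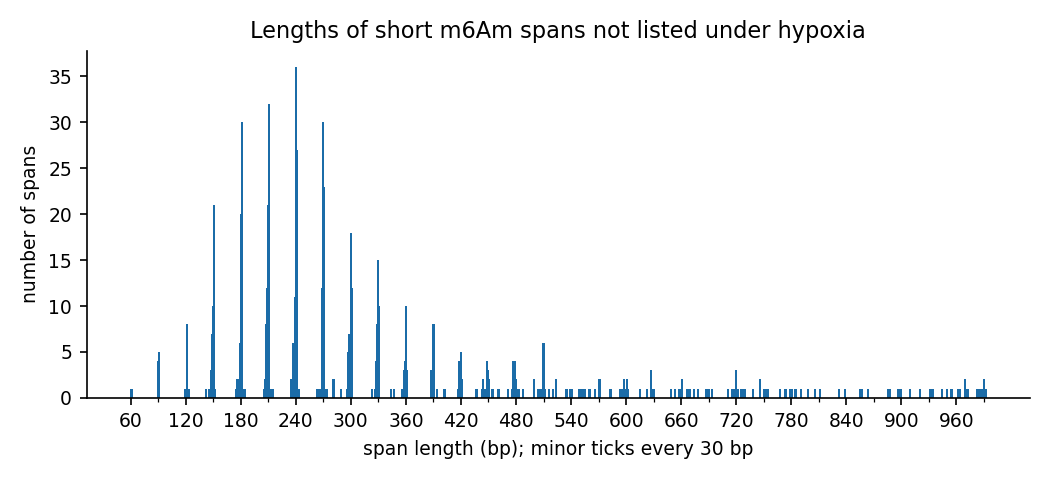
Number of short m6Am spans not listed under hypoxia (y axis) at each length in bp (x axis, minor ticks every 30 bp). The counts stand in narrow groups 30 bp apart, the highest at 240 bp with 36 spans.

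The shortest spans were those of BSCL2 (60 bp), which encodes the lipid droplet protein seipin, and PUM2 (61 bp), a Pumilio RNA-binding protein. SKAP2, SMARCD3 and SLC35A2 were 3 of the 4 spans of 90 bp that followed. Just inside the limit lay VIM (992 bp), the gene of the intermediate filament vimentin, then PRDM6 and TPBG (990 bp each), EIF3L (988 bp) and CKMT1B (986 bp). Just outside lay LOC283683 (1002 bp), PTGS2 (1011 bp), which encodes a cyclooxygenase, PAN2 (1013 bp) and BOLA3-AS1 (1014 bp).

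On the transcript picked as nearest to it, the 5′ edge of the short spans lay close to an annotated start. It was at the start itself in 164 of 656 spans (95% Wilson interval 21.8 to 28.5%), within 10 bp in 283 (43.1%) and within 100 bp in 531 (80.9%, interval 77.8 to 83.8%). These intervals cover counting error over spans, which are not replicates. Picking the nearest start favours small distances, and on the most 5′ start of each gene 57.0% began within 100 bp. The authors' exomePeak calls also used a gene annotation, whose part in these distances was not tested. Longer spans not listed under hypoxia had similar shares on the nearest start: 27.4% at it, 44.2% within 10 bp and 79.7% within 100 bp. The edge of the short spans lay upstream of the nearest start in 376 and downstream in 116, with a median of 7 bp upstream. Of the 125 spans with an edge over 100 bp away, 99 began upstream, and 34 of those 99 held an annotated start of the opposite strand. In all, 61 short spans (9.30%) held a start of the opposite strand, 42 of them beside a start of the named gene, and since the lists give no strand the gene name alone assigns such a span.

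**Figure D2:**
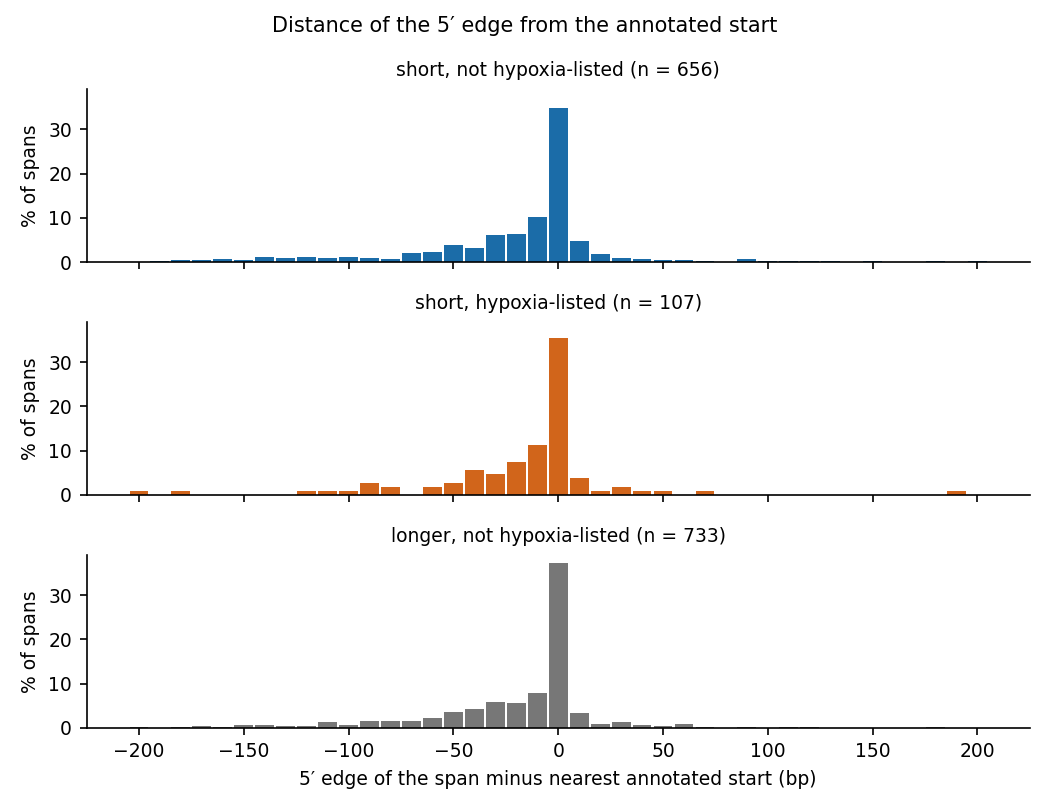
Share of spans (y axis, %) by the distance in bp from the nearest annotated start of the named gene to the span's 5′ edge (x axis, 10 bp bins, negative upstream) in 3 classes. The bin centred on 0 is the highest in each class, and 67 of the 656 short spans not listed under hypoxia lie beyond the axis.

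Most short spans ended in the first exon. The 3′ edge fell inside the first exon in 498 of 656 spans (75.9%, interval 72.5 to 79.0%), past it in 132 and upstream of it in 26. With both edges required inside, which also demands that the 5′ edge not lie upstream of the annotated start, 218 spans (33.2%) were left. The first exon had a median of 389.5 bp for these 498 spans and of 132 bp for the 132 that ran past it, a contrast that the split by exon end itself brings. The latter spans crossed a median of 275 bp of intron, 88 of them touched at least 2 exons and 36 touched 1. Over all 656 transcripts the first exon had a median of 338 bp, against 362 bp for the 107 short hypoxia-listed spans. The median was 146 bp for 733 longer spans not listed under hypoxia and 186 bp for the canonical transcripts of 19388 protein-coding genes. A longer span can hardly end in a first exon, so the contrast with longer spans follows from the rule and was not tested. The length limit can also shape the contrast with canonical transcripts, and the other 2 contrasts were not tested either. In 2 short spans the 3′ edge coincided with the last base of the first exon.

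Against the 107 short spans that overlapped a hypoxia span, which obey the same length limit, neither position differed past the threshold of 0.05. The 3′ edge lay in the first exon in 81 of those 107 (75.7%), a difference of 0.214 percentage points (interval -7.70 to 9.67; two-sided Fisher's exact test, p = 1, adjusted p = 1). The 5′ edge lay within 100 bp of a start in 90 of 107 (84.1%), with a difference of -3.17 points (interval -9.72 to 5.4; exact test, adjusted p = 1). Single-exon transcripts made up 29 of 656 and 4 of 107. Adjusted p-values here are Benjamini-Hochberg values over 13 tests. These intervals leave room for differences of several points either way.

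Start codons lay inside 245 of the 570 spans with an annotated one (43%, interval 39.0 to 47.1%). The leader before the codon had a median of 124 bases in those 245 transcripts and 350 bases in the 325 others, with 233.5 bases over all 570; a short leader puts the codon near the start, so that contrast comes with the split. Along the exons, the 3′ edge of all 656 spans lay at a median of 218 bases from the transcript start, with quartiles of 171.75 and 272 bases. The start codon lay beyond the span in 320 of the 325 spans without it and before it in 5. In 397 of 570 transcripts (69.6%) the codon was in the first exon. Of 116 transcripts with a leader of at most 100 bases, 101 had the codon in the span, and of 56 with at most 50 bases, 50 did. Short hypoxia-listed spans held the codon in 44 of 96 (45.8%), a difference of -2.85 points (interval -13.6 to 7.60; exact test, adjusted p = 1).

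**Figure D3:**
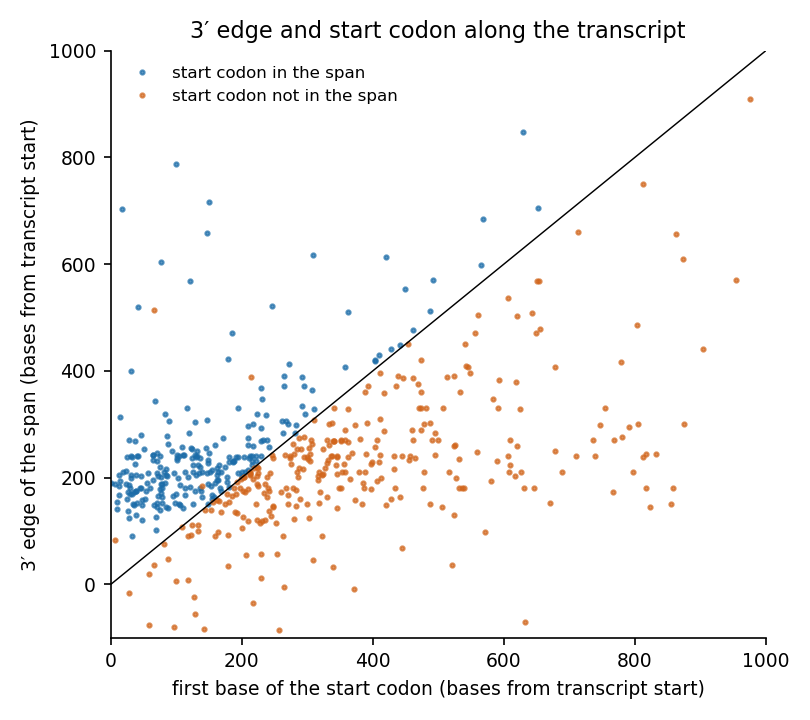
Position of the span's 3′ edge (y axis) against that of the start codon (x axis), both in bases from the transcript start along the exons, for short spans not listed under hypoxia; 19 of 570 lie beyond the axes. Points above the line mostly hold the codon, and many 3′ edges gather in a narrow band over a wide range of codon positions.

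Immediate early and stress factors show the range. EGR1, a zinc finger transcription factor induced within minutes of growth signals, had a span of 240 bp (chr5:137801181-137801420) that began 13 bp after the annotated start and lay inside the 590 bp first exon. Its leader has 283 bases, so the start codon lay outside the span, and 79.2% of the span was G or C. FOS, a subunit of the AP-1 transcription factor, had 211 bp (chr14:75745481-75745691) that began 48 bp upstream of the start. The FOS leader has 157 bases, and the codon was inside. ATF4, a factor of the integrated stress response whose leader holds upstream open reading frames, had 150 bp (chr22:39916564-39916713) that began 3 bp upstream of the start and ended in the 190 bp first exon. The ATF4 start codon comes after 282 leader bases and was not reached. Immediate early and stress factors named 5 spans in the whole list, and these 3 were the short ones not listed under hypoxia (60%, against 40.9% of all spans).

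Of 5 spans of the cap and m6A machinery, 2 were short and not listed under hypoxia (40%, against 40.9% of all spans). Both began exactly at an annotated start, as did 164 of all 656. DCP1B, a decapping cofactor, had 241 bp (chr12:2113461-2113701) inside a first exon of 254 bp, with the start codon after 104 bases. YTHDF3, a cytoplasmic m6A reader, had 857 bp (chr8:64081112-64081968), of which 372 bp were exonic and 485 bp lay in introns, and its start codon lay beyond the span. RBM48, an RNA-binding protein of minor intron splicing, had 791 bp (chr7:92158087-92158877) that began at the start. The RBM48 span covered 240 exonic and 551 intronic bp, ran past the 152 bp first exon and held the start codon, which follows a leader of 41 bases.

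**Figure D4:**
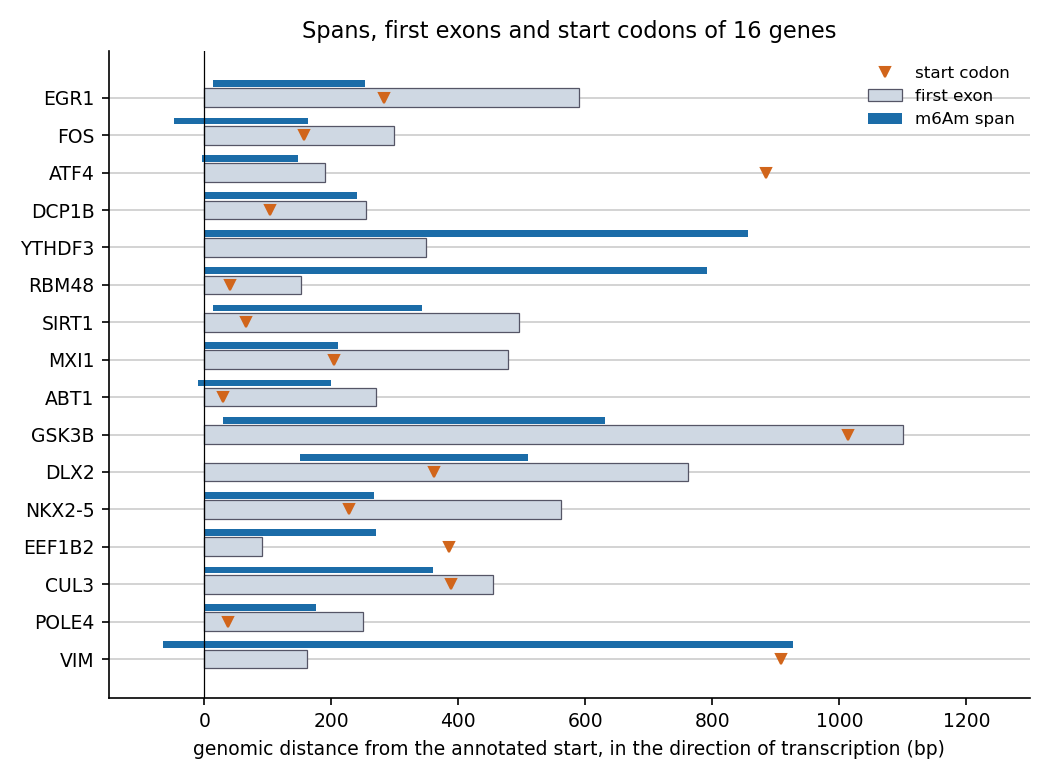
First exon (grey box), start codon (triangle) and m6Am span (bar above) of 16 genes by genomic distance in bp from the annotated start (x axis, direction of transcription to the right). The spans of EGR1, ATF4 and CUL3 end before the start codon, that of RBM48 runs past the first exon, and the YTHDF3 codon lies 17612 bp away, beyond the axis.

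The first base of the nearest annotated start was A in 322 of 656 short spans (49.1%, interval 45.3 to 52.9%), G in 213, C in 98 and T in 23. The triplet ending there was CCA in 79, TCA in 70 and GCA in 59, together 208 (31.7%, interval 28.3 to 35.4%). Among longer spans not listed under hypoxia, A stood at 302 of 733 starts (41.2%), which was 7.88 points fewer (interval of the difference 2.64 to 13.1; two-sided Fisher's exact test, p = 0.00352, adjusted p = 0.0153). The triplets stood at 179 of 733 (24.4%), 7.29 points fewer (interval 2.56 to 12.0; exact test, p = 0.00272, adjusted p = 0.0153). Canonical starts of the 19388 protein-coding genes had A in 51.1% and the triplets in 35.0%. That set is unlike the nearest transcripts of the short spans, which include noncoding ones. On protein-coding transcripts alone, the short spans had A in 329 of 620 (53.1%) and the triplets in 216 of 620. The lists give spans and not single bases, so the base that carried the mark was not measured in them. In the same exact test, neither difference passed the threshold of 0.05 when each gene was read on its most 5′ start (2.77 points for A, adjusted p = 0.563; 2.54 points for the triplets, adjusted p = 0.563). Among the 164 spans that began at a start the differences were larger, 10.4 points for A and 9.11 points for the triplets, but did not pass it (exact test, adjusted p = 0.138 each). The triplets also missed it on protein-coding transcripts (5.97 points; exact test, adjusted p = 0.0748) and at a limit of 2000 bp (5.67 points, 0.0957).

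Against short hypoxia-listed spans, the first base gave no difference past the threshold. A stood at 54 of 107 starts (50.5%; difference -1.38 points, interval -11.4 to 8.69; exact test, adjusted p = 1) and the triplets at 35 of 107 (32.7%; difference -1.0 points, interval -11.0 to 7.94; adjusted p = 1). With only spans that began at a start the triplet difference was -14.0 points (exact test, adjusted p = 0.26), also short of the threshold. A start codon within 100 bases of the transcript start was found in 116 of 570 and 22 of 96 transcripts (20.4% and 22.9%; exact test, adjusted p = 1).

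Neighbouring genes did differ. A start of another gene on the opposite strand lay within 1000 bp upstream, as in a divergent gene pair, for 198 of 656 short spans not listed under hypoxia (30.2%, interval 26.8 to 33.8%). For short hypoxia-listed spans it did so in 50 of 107 (46.7%), a difference of -16.5 points (interval -26.5 to -6.68; two-sided Fisher's exact test, p = 0.00116, adjusted p = 0.015). Overlap was counted without strand, so a hypoxia span of the neighbouring gene can also mark a span as listed. With only the 103 short spans whose hypoxia span carried the same gene name, a choice made after the data were seen, the difference was -14.5 points (exact test, adjusted p = 0.0193). The lists give no strand, so a shared name cannot exclude a peak of the neighbouring gene. With all short hypoxia-listed spans, read on the most 5′ starts, the difference was -14.4 points, no longer past the threshold (exact test, adjusted p = 0.0628). Longer spans not listed under hypoxia had such a neighbour in 265 of 733 (36.2%; difference -5.97 points, interval -10.9 to -1.01; exact test, adjusted p = 0.0632), longer hypoxia-listed spans in 42 of 112 (37.5%, interval 29.1 to 46.7%, not tested), and the 19388 canonical starts in 23.6%. DNAJC30 and BUD23 form such a pair.

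**Figure D5:**
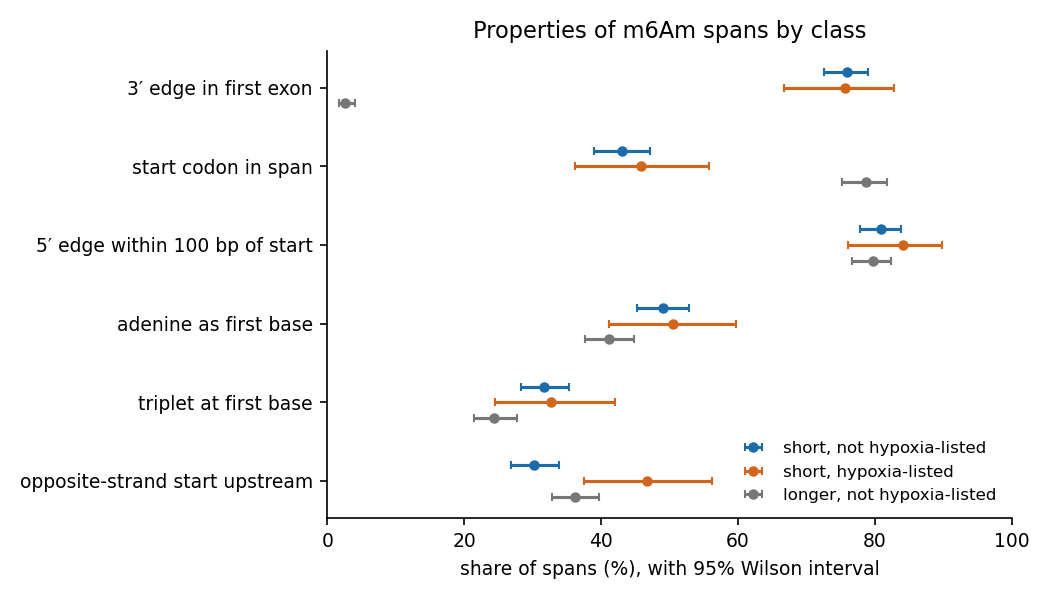
Share of spans (x axis, %) with each of 6 properties in 3 classes; points are shares and bars their 95% Wilson intervals, and the triplet is CCA, GCA or TCA ending at the first base. Short spans not listed under hypoxia lie at 30.2% for an opposite-strand start upstream, below short hypoxia-listed spans at 46.7%, and the intervals of both short classes overlap for the other properties.

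The window from 250 bases before to 50 bases after the start was searched on both strands for short promoter letters. GGGCGG, the core of the GC box, was found at 458 of 656 starts (69.8%, interval 66.2 to 73.2%), against 62.0% of 19388 canonical protein-coding starts. CCAAT was found in 39.0% (36.0% of canonical starts) and CCGGAAG, the core bound by ETS factors, in 17.1% (14.1%). GCATGCGC, as in NRF1 sites, was found in 5.34% (4.26%) and AAGATGGC, as in YY1 sites, in 5.64% (4.09%). Both were more frequent still at longer spans not listed under hypoxia (6.82% and 8.73%) and at short hypoxia-listed spans (5.61% and 7.48%). GGGCGG stood at 70.0% and 67.3%, CCAAT at 41.3% and 42.1% and CCGGAAG at 19.6% and 15.9% of the starts in these classes. TATAAA was found in 8.08% (9.58%), TGACGTCA, the cAMP response element, in 2.29% (2.73%), and ACTACAATT in 2 windows (0.305%, against 0.449%). A match is a string of letters and not a measured site, windows of neighbouring starts can share bases, and none of these shares was tested. The spans themselves were GC-rich, with a median of 65.7% and quartiles of 59.4% and 71.4%.

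Around the start codon, ATGG stood in 282 of 570 transcripts (49.5%), against 320 of 586 for longer spans not listed under hypoxia (54.6%; difference -5.13 points, interval -10.8 to 0.624; exact test, adjusted p = 0.228). A purine stood 3 bases before the codon in 475 of 570 and 491 of 586 (83.3% and 83.8%; exact test, adjusted p = 1). The letters AAGATGG, the core of the element for translation initiation at short leaders (TISU), surrounded the codon in 23 of 570 (4.04%, interval 2.70 to 5.98%). The share was 4.05% in 19388 canonical transcripts, 6.48% in longer spans not listed under hypoxia and 6.25% in short hypoxia-listed spans, and these shares were not tested. Of the 23, 15 held the codon in the span, as did 43% of all 570. A leader of at most 100 bases was found in 11 of the 23 and in 20.4% of all 570. The first 6 by position are printed to show the codon in its context, read from the spliced transcript on GRCh37, with AAGATGG in capitals, leader bases to the left of ATG and coding bases from it on.
PDIK1L (chr1:26440785-26440814, plus strand): acctcgaccttgAAGATGGtgagtagccag
RPRD2 (chr1:150337176-150337205, plus strand): gtgcaaaccgggAAGATGGcggccggcggc
KIF3C (chr2:26204772-26204801, minus strand): ggtcagagcagcAAGATGGccagtaagacc
TMEM87B (chr2:112813154-112813183, plus strand): agcttcctggtcAAGATGGtcgccgcctgc
RNF150 (chr4:142053948-142053977, minus strand): ccccggcggataAAGATGGcaatgtctctc
TMED9 (chr5:177019204-177019230, plus strand): aggtggagcAAGATGGctgtggagctg
TMED9, a cargo receptor of the early secretory pathway, has a leader of 12 bases, and its 240 bp span held the codon. RPRD2, which binds the RNA polymerase II tail, held the codon after 568 bases in a span of 720 bp. In PDIK1L, KIF3C, TMEM87B and RNF150 the leader has 273, 580, 323 and 654 bases and the codon lay outside the span.

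Of the 675 short spans, 14 overlapped a span of the heat shock list (2.07%, interval 1.24 to 3.45%), against 42 of all 1652 spans (2.54%). Longer spans not listed under hypoxia had nearly the same share, 15 of 754 (1.99%). Among hypoxia-listed spans it was 7 of 107 short ones (6.54%) and 6 of 116 longer ones (5.17%). For comparison, 223 of all 1652 (13.5%) overlapped the hypoxia list, which the choice of spans used. Both stress lists rest on the same untreated control libraries, so the heat shock overlap is given as a count, without a test, and no direction of change was read. Both edges were identical in 4 of the 14, and 1 edge was shared in 8. Over all 42 overlapping spans these counts were 9 and 22.

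SIRT1, an NAD-dependent deacetylase, had the same 330 bp span in both lists (chr10:69644427-69644756), which began 13 bp after the start, held the start codon after 66 bases and was 80% G or C. MXI1, which competes with MYC for their partner MAX, had the same 210 bp span (chr10:111967363-111967572), from the annotated start to just past the codon at 204 leader bases. SASS6, a centriole assembly protein, and TNFRSF10B, a TRAIL death receptor, shared spans of 331 bp each. ABT1, a nuclear factor named for activating basal transcription, began at the same base in both lists, with 209 bp here and 239 bp in the heat shock list. UQCRHL, a single-exon relative of a complex III subunit gene, shared its 5′ edge, with 240 and 180 bp.

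HSPD1, which encodes the mitochondrial chaperonin HSP60, had a span of 934 bp (chr2:198364990-198365923) that lay almost wholly upstream of the HSPD1 start, with 9 bp in its first exon. HSPE1, the gene of its cochaperonin, begins on the opposite strand within 1000 bp. That span lay inside 2 heat shock spans, named HSPD1 (2971 bp) and MOB4 (23558 bp). GSK3B, a kinase of glycogen and WNT signalling, had 601 bp inside a first exon of 1101 bp, with the start codon after 1013 bases and outside the span. ZNF142 and ZBTB11, both zinc finger genes, had 213 and 240 bp, each inside a longer heat shock span.

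Gene groups were drawn by name patterns, so they hold some genes of other roles and a gene can stand in more than 1 group. Their shares were not tested. Over all short spans not listed under hypoxia, 75.9% ended in the first exon and 43% of those with a start codon held it.

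Developmental transcription factors had 23 short spans among 36 in all (63.9%, against 40.9% for all 1652 spans). Their first exons had a median of 616 bp, the span ended inside the first exon in 20 of 23, and the start codon lay in 13 of 19. The name pattern also took a few genes of other roles, such as FOXRED2. DLX2, a homeobox factor of forebrain and limb, began 150 bp after the start and held the codon after 362 bases. NKX2-5, the cardiac homeobox factor, had 269 bp from 1 bp upstream of the start with the codon after 228 bases. PAX3, a factor of neural crest and muscle, had 211 bp from the start on a transcript with no start codon annotated. FOXD3-AS1, an antisense RNA, had 148 bp. The HOXA cluster, singled out after its values were seen, held 6 of these spans, of HOXA7, HOXA9, HOXA10-AS, HOXA10 (a pair) and HOXA11.

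Numbered zinc finger genes had 9 short spans among 38 (23.7%, against 40.9% of all spans), while 25 of the 38 were longer and not hypoxia-listed, as were 754 of all 1652 (45.6%). The 3′ edge was in the first exon in 8 of 9 and the start codon in the span in 2 of 8. ZNF513 had 271 bp and held the codon, ZNF142 and ZNF467 had 213 and 150 bp with leaders of 616 and 523 bases, and ZNF692 had 806 bp and ran past its 148 bp first exon.

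Genes picked by names of ribosome and translation factors had 11 of 20 (55.0%, against 40.9% of all spans), with a median length of 269 bp. The name pattern also took the mitochondrial synthetase genes MARS2 and YARS2, the pseudogene RPL32P3 and the antisense RNA EIF1B-AS1. Their 3′ edge was in the first exon in 5 of 11 (75.9% over all short spans not listed under hypoxia), and the start codon in the span in 5 of 9. EIF2B4, a subunit of the exchange factor that recycles eIF2, had 969 bp, a first exon of 55 bp and a start codon after 24 bases. MARS2, which joins methionine to its mitochondrial tRNA, is a single-exon gene with the codon after 37 bases. EEF1B2, an elongation factor subunit, had 271 bp from the start, past its 91 bp first exon and short of the codon.

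Genes of mitochondrial respiration, ribosome and import had 7 of 22 (31.8%, against 40.9% of all spans). UQCRHL held its codon, which opens the annotated transcript. ATP5IF1, the inhibitor of the ATP synthase, had 328 bp past a first exon of 162 bp, with the codon after 75 bases in the span. TOMM40L, a relative of the outer membrane import channel, had 488 bp and TIMMDC1, an assembly factor of complex I, 207 bp, and neither held the codon.

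RNA processing genes and helicases had 16 of 37 (43.2%, against 40.9% of all spans), with a median length of 343.5 bp. The name pattern also took INTS6L-AS1, an antisense RNA. Of the 15 with a transcript, 8 ended in the first exon. RBM8A, a core protein of the exon junction complex, had 653 bp and RBM34 437 bp, both past their first exons of 136 and 110 bp. RBMS1 had 241 bp from the start inside an exon of 519 bp, short of the codon at 444 leader bases. UTP3, a single-exon gene of ribosome biogenesis, had 711 bp and held the codon after 146 bases.

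Ubiquitin and proteasome genes had 14 of 44 (31.8%, against 40.9% of all spans). Of the 14, 11 ended in the first exon and 4 held the start codon, against 75.9% and 43% over all short spans not listed under hypoxia. CUL3, a cullin scaffold, had 360 bp from the start, with the codon after 388 bases and outside the span. PSMD2, a subunit of the proteasome cap, had 750 bp and held the codon after 69 bases. RNF150 and FBXW7, the latter a substrate receptor for cyclin E and MYC, began at the start with 479 and 931 bp and leaders of 654 and 1178 bases, and neither held the codon.

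Replication, repair and cell division genes had 15 of 41 (36.6%, against 40.9% of all spans), 10 ended in the first exon and 7 of 13 held the codon. CDC73, of the PAF1 elongation complex, had 331 bp, and KIF3C, a kinesin, 270 bp. POLE4, a small subunit of DNA polymerase epsilon, had 176 bp from the start and held the codon after 37 bases. ERCC3, a helicase of the repair and transcription factor TFIIH, had 549 bp, ran past a first exon of 113 bp and held the codon after 85 bases.

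Vesicle and endosome traffic genes had 20 of 49 (40.8%, against 40.9% of all spans), among them SEC1P, a pseudogene of another role taken by its name. Of the 20, 16 ended in the first exon, and 8 of 16 with an annotated codon held it. VPS45, which acts with syntaxins at endosomes, had 209 bp and a leader of 343 bases. RAB29 had 455 bp from the start, past its 210 bp first exon, and RAB1A 270 bp inside an exon of 439 bp, both without the codon. EXOC6B, of the exocyst, had 241 bp and held the codon after 131 bases.

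Histone and chromatin genes had 16 of 41 (39.0%, against 40.9% of all spans), 10 of 14 ended in the first exon and 4 of 10 held the codon. SMARCA5, a chromatin remodelling ATPase, had 360 bp that began 239 bp upstream of the start. HIST2H4B and H3F3AP4, a histone gene and a pseudogene, had 142 and 207 bp and were not matched to the annotation. H1FX-AS1, an antisense RNA, had 237 bp.

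Noncoding, host and antisense names had 37 of 127 (29.1%, against 40.9% of all spans), and 75 of the 127 were longer and not hypoxia-listed, against 45.6% of all 1652 spans. The median length was 358 bp, and 14 of 29 with a transcript ended in the first exon. The pattern also took open reading frame names of protein-coding genes such as C1orf109, which had 301 bp. SLC2A1-AS1 had 179 bp, FOXD3-AS1 148 bp and LINC01138, not matched to the annotation, 297 bp. The span of SLC2A1-AS1 held no exonic base of that RNA, since it began 359 bp upstream of the start. SLC2A1, the glucose transporter gene, begins on the opposite strand within 1000 bp. The paper reports raised m6Am in the SLC2A1 mRNA, there called GLUT1, under hypoxia, while this span overlapped no span of the hypoxia list. Which of these genes the span marks was not tested.

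Single-exon transcripts carried 29 short spans (4.42%, interval 3.10 to 6.28%), against 5.41% of 19388 canonical transcripts. The first by position were UQCRHL, MARS2, RAP2B, UTP3, HIST1H2BO, TBCC, C6orf226, SF3B5, DNAJC30 and TNKS. RAP2B, a small GTPase, has an exon of 8402 bp, of which the span covered 376 bp, and its codon at 468 leader bases lay outside. The other 9 held the codon, with leaders from 0 bases in UQCRHL to 146 in UTP3. HIST1H2BO, a replication-dependent histone H2B gene, had 176 bp from the start and the codon after 38 bases, and TNKS, a tankyrase, had 151 bp and the codon after 8.

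No start codon was annotated on the nearest transcript of 86 short spans. By position the first were SLC2A1-AS1, FOXD3-AS1, HHLA3, SASS6, INKA2, RBM8A, SCNM1, GBAT2, CDC73 and CD55. Of these, SASS6, INKA2, RBM8A, SCNM1, CDC73 and CD55 are protein-coding genes whose nearest transcript is annotated without a coding sequence, so their spans gave no start codon position.

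A pair of short spans stood under each of 7 gene names. PUM2 had 61 and 151 bp, SKAP2 90 and 359 bp, HOXA10 330 and 536 bp, PPP3CB 593 and 180 bp, SLC3A2 298 and 209 bp, KCTD1 687 and 208 bp and SNRPA 270 and 208 bp. The SLC3A2 pair, in the gene of a subunit of amino acid transporters, began 8 and 9 bp after different annotated starts, and each held a start codon. The shorter PPP3CB span, in a calcineurin gene, lay inside the longer one.

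The gene name of 4 short spans also stood in the hypoxia list at another position. The gap was 94 bp for C6orf106, 166 bp for VPS45, 315 bp for ALG3, a mannosyltransferase of N-glycan synthesis, and 42907 bp for SLC24A1. In all 4 the hypoxia span lay downstream of the short span in the direction of transcription.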

How the data were processed

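Upstream of the lists, reads were trimmed (Trim Galore 0.6.6) and aligned to hg19. Peaks came from MACS2 and exomePeak, and those without an overlapping m7G-IP peak were dropped. The deposited lists hold 1-based outer spans and gene names. How replicates were combined is not given in the sources used here, and depth per library is unknown. The fifth column of both stress lists holds the authors' own comparison with untreated cells and was not used. Spans were matched by name to Gencode release 44 genes lifted to GRCh37, at most 5000 bp away, with older symbols from a RefSeq table (GRCh38.p14, names only), and read on the transcript with the start nearest the 5′ edge. Shares carry 95% Wilson intervals, and differences carry Newcombe intervals. The 13 two-sided Fisher's exact tests over spans were adjusted together by the Benjamini-Hochberg method, with a threshold of 0.05. Position functions were checked on made-up transcripts and the test on simulated shares. Software was Matplotlib 3.10.9, samtools 1.23.1, SciPy 1.17.1, Python 3.11.15, pyfaidx 0.9.0.4 and NumPy 2.4.6. The members and gene lists were chosen with earlier results of these data known.

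Genes were named by rule: heat shock overlaps (the first 10 by position), the 5 shortest, up to 5 each just inside and just outside the length limit, repeated names, names in the hypoxia list without overlap, up to 4 per gene list by position (all for cap machinery and immediate early factors), EGR1, RBM48, and up to 10 each on single-exon transcripts or transcripts without a start codon. Sequences were the first 2 per list with a start at the 5′ edge and 6 with AAGATGG, none on chromosome 8. Other transcripts, overlap rules, length limits and distances, and 1 span per name, were tried.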

Additional observations from a re-analysis of the deposited data

How the results depend on the processing

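Of 130 alternative values for 18 results, 93 kept their direction and side of the threshold, or stayed inside the interval. On the most 5′ start of each gene, 56.7% of spans ended in the first exon, 37.9% held the start codon, 57.0% began within 100 bp of the start and 44.5% had A first. With protein-coding transcripts alone 53.1% had A first, and with the edge exactly at a start 53.7%. A limit of 500 bp gave 85.0% in the first exon, and 2000 bp gave 65.6% with 47.4% holding the codon. Within 10 bp of a start began 43.1%, and 33.2% had both edges in the first exon, an alternative chosen after seeing the data. Against longer spans, the difference for A shrank to 2.77 points on most 5′ starts and that for the triplets to 2.54 points (exact test, adjusted p = 0.563 each), past the threshold no longer. The triplets also missed it on protein-coding transcripts (5.97 points) and at 2000 bp (5.67 points). With only the 164 spans at exact edges both differences were larger (10.4 and 9.11 points) but missed the threshold (0.138 each). The opposite-strand start passed it against longer spans on protein-coding transcripts (-6.99 points), by gene name (-6.34) and at 500 bp (-8.08). Against short hypoxia-listed spans it missed it on most 5′ starts (-14.4). Differences that never passed the threshold changed sign in 16 cases. Against short hypoxia-listed spans these were, on most 5′ starts, -5.91 points (first exon), 0.00285 (5′ edge), -1.01 (single exon), 2.46 (A), 0.946 (triplets) and 0.150 (leader); with overlap of at least 50% of either span, -1.46 (first exon); on protein-coding transcripts, 2.08 (A) and 1.51 (triplets); at 500 bp, 0.445 (A) and 2.55 (triplets); at 2000 bp, 1.10 (5′ edge), 0.714 (A) and 0.844 (triplets); and within 10 bp, 2.95 (5′ edge). Against longer spans, the purine before the codon gave 0.223 points at 2000 bp. The cause was not tested. The heat shock count stayed at 14 with overlap of at least 50% of either span and was 15 by gene name. No paired analysis was possible because the lists hold no value per replicate. Depth per library is unknown.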

Other observations

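1 short span carries the name 2-Sep (chr2:242254632-242255022, 391 bp), a date in place of a gene symbol, and was left unmatched. The deposited heat shock list holds 74 lines with 73 distinct spans, of which 37 are at most 1000 bp long, and the hypoxia list 390 lines with 385 distinct spans, of which 182 are. Chromosome 1 holds 72 of the 675 short spans, chromosome X 36 and chromosome 21 holds 2, against 180, 82 and 17 of all 1652 spans. The transcripts of the matched short spans lie on the plus strand in 303 cases and on the minus strand in 353, against 796 and 812 over all matched spans.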
